A study of Mus musculus with 16 samples.

Results

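The 9 genes Bcl2a1a, Bcl2a1b, Bcl2a1d, Mcl1, Birc2, Birc3, Cflar, Traf1 and Gadd45b, survival genes known as targets of the transcription factor NF-kB, were examined for open chromatin in mouse macrophages. Overlapping peaks of 4 peak lists were joined into 37648 regions, and every region with its midpoint at most 100 kb from the start of transcription (TSS) of one of the genes was taken. This gave 115 distinct regions, of which 7 lay within reach of both Birc2 and Birc3. Because a region needs a peak in any of the 4 lists, peak calls enter that rule, while scores and differences between lists do not. The genes were chosen with earlier results of these data known.

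Open chromatin was mapped by ATAC-seq, which cuts and tags accessible DNA with the transposase Tn5, in cultured bone marrow-derived macrophages (BMDMs) of female C57BL/6J mice, aged 8 to 10 weeks per the methods of the study. Each of the 16 libraries came from 50000 cells, with 4 libraries in each of 4 groups. On day 8 of culture, in medium without serum, Veh cells received DMSO and T0 cells received 500 nM T0901317, a synthetic agonist of the liver X receptor (LXR), each for 3 h. The LPS and T0-LPS groups had the same 3 h with DMSO or T0901317 and then 10 ng/mL lipopolysaccharide (LPS), a bacterial ligand of TLR4, in the same medium for 2 h, so that an effect of LPS and of the longer culture cannot be told apart. The cells of all groups were wild type and differentiated with L-cell conditioned medium.

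The deposited list of a group pools its 4 libraries, so no value below has a replicate check and no p-value is given. The lists held 35551 (Veh), 29839 (T0), 33181 (LPS) and 31085 (T0-LPS) peaks, each with a score from the peak caller. Because that score grows with sequencing depth, which is unknown here, each peak was placed by its percentile, the share of peaks of its own list with a lower score. A region was called lost or gained between 2 lists when it held a peak in one of them and none in the other. In such bulk libraries, fewer cells with an open site and a less open site in every cell cannot be told apart. The authors had kept only peaks that matched macrophage enhancers, so marker genes cannot check the cell label independently. With that limit, all 8 macrophage marker genes had a peak within 1 kb of their TSS in every list. None of 5 T cell markers had one, and of 4 markers each, B cells and neutrophils had 1 in every list and fibroblasts had 1 in Veh and none in the other lists.

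TLR4 signaling frees NF-kB from its inhibitors, and among the genes that NF-kB then switches on are some that block cell death. These products act at different steps: A1, the protein of the Bcl2a1 genes, and MCL-1 guard the mitochondrial outer membrane, the cIAP proteins of Birc2 and Birc3 and the adaptor TRAF1 work in TNF receptor complexes, c-FLIP (Cflar) restrains caspase activation at death receptors, and GADD45B restrains stress kinase signaling. In macrophages these genes are known as part of the program that lets the cell outlive its own inflammatory response.

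Peaks present with LPS and missing in Veh were found at each of the 9 genes. Of the 104 regions with an LPS peak, 18 (17.3%, Wilson 95% interval 11.2 to 25.7, counting error only) had no Veh peak, against 6.14% of all regions. Bcl2a1b and Traf1 each had 3 such LPS-gained regions and Gadd45b had 4. Cflar had 1, and Birc2 and Birc3 shared 1. That shared peak was at percentile 1.72 of the LPS list. The numbering of the Veh peaks left room there for 2 that the authors' enhancer filter may have taken out, so a gain at Birc2 and Birc3 is uncertain. Bcl2a1a, Bcl2a1d and Mcl1 had 2 each. Over all 17776 protein-coding genes with a region in the same window, 29.5% had at least 1 LPS-gained region and 2.55% had 3 or more, but these genes had a median of 7 regions and the survival genes a median of 12. Without the 3 Bcl2a1 genes, 11 of 72 regions (15.3%) were gained. With elements that align between the Bcl2a1 genes counted once, 14 of 89 were. An aligned element counted as gained if any copy was, even where another copy held a Veh peak. Within 10 kb of a TSS, 9 of 32 LPS regions (28.1%) were gained, against 5.26% of all regions within 10 kb of a protein-coding TSS.

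None of the 18 LPS-gained regions held a T0 peak (interval 0 to 17.6%), next to 4.20% of all LPS-gained regions. A T0-LPS peak was in 10 of the 18 (55.6%, interval 33.7 to 75.4), next to 53.0% of all LPS-gained regions. Gains with LPS and losses from LPS to T0-LPS use the same LPS list, so these are presence patterns and not independent comparisons. The 10 that T0-LPS also held were at percentile 11.1 to 62.7 of the LPS list, with a median of 37.4. The 8 missing from T0-LPS were at 1.72 to 28.8, with a median of 5.19. At the Bcl2a1 genes 6 of 7 were found in T0-LPS, and at the other genes 4 of 11.

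**Figure D1:**
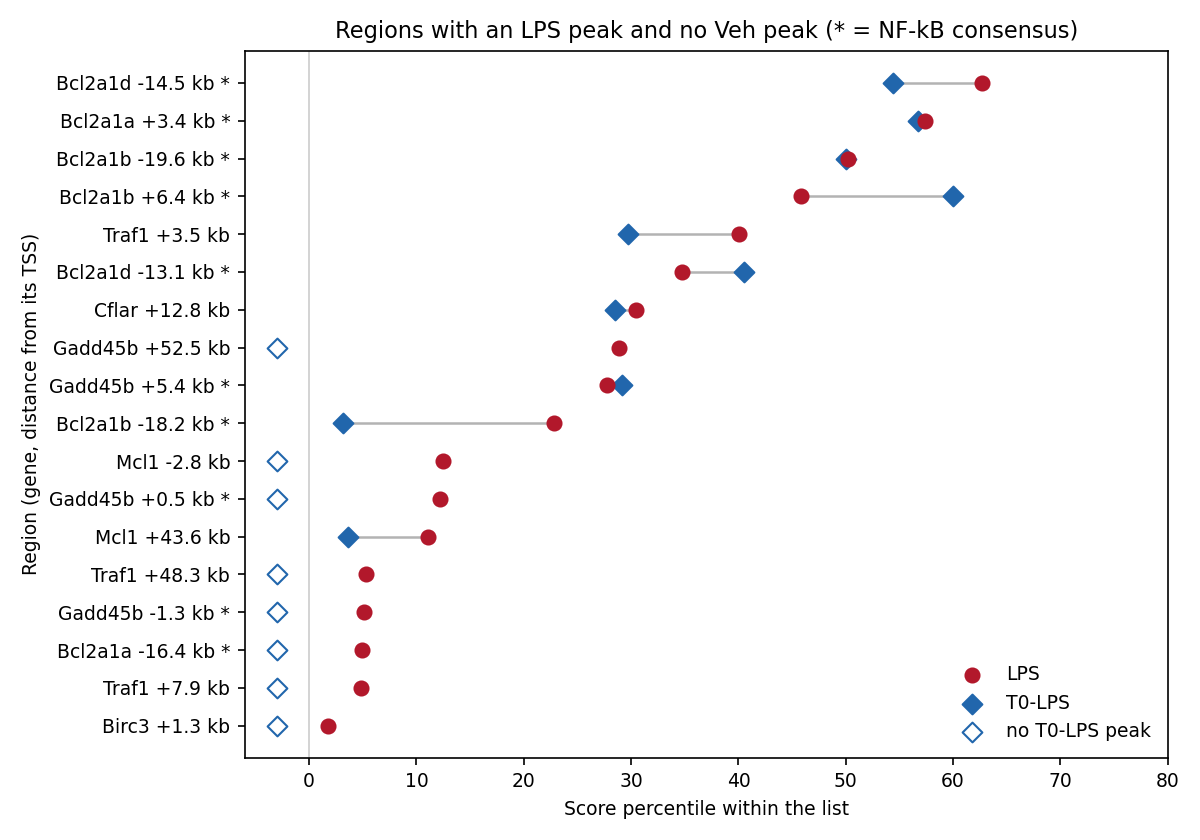
The 18 regions with an LPS peak and no Veh peak are plotted by their score percentile in the LPS list (red circles) and in the T0-LPS list (filled blue diamonds), with open diamonds left of 0 where T0-LPS had no peak. The region labels give the gene and the distance from its TSS, and stars mark an NF-kB consensus within 300 bp at the region centre. The 4 highest in LPS, at percentile 45.8 to 62.7, belong to Bcl2a1 genes, and the open diamonds lie mostly at the low end.

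In the other direction, 10 of 96 Veh regions (10.4%, interval 5.76 to 18.1) had no LPS peak, against 13.0% of all. All 10 were weak, at percentile 1.55 to 18.9 of the Veh list. With only peaks scoring at least 200, 21 of 68 had no LPS peak (30.9%, against 18.1% of all). That count takes an LPS peak scoring below 200 as missing. It holds none of these 10, whose Veh scores were at most 166. The score also grows with depth, which is unknown here. Where a peak was missing, the numbering left room for a removed one in 2 of the 18 LPS-gained, 2 of the 10 LPS-lost and 3 of the 18 T0-lost regions. The same held for 3 of the 14 regions lost with T0 in LPS. Among the 86 regions with a peak in both lists, 7 (8.14%) were at least 20 percentile points higher in LPS, against 3.92% of all regions, and 20 (23.3%) were at least 20 points lower, against 9.14%. Of these 20, 10 were at the Bcl2a1 genes. The median change from Veh to LPS was -5.37 points near the survival genes and -2.01 points over all regions. It was -2.76 with lists of equal length and -1.61 among regions with a peak in all 4 lists, and in the 10 kb window it turned to 0.124.

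T0 alone added no peak: 0 of 78 regions with a T0 peak lacked a Veh peak (interval 0 to 4.69%), against 0.729% of all. Of the 96 Veh regions, 18 (18.8%, interval 12.2 to 27.7) had no T0 peak, next to 18.1% of all regions. These 18 were at percentile 1.55 to 39.2 in Veh, and 14 of them were below percentile 25. They belonged to 8 of the 9 genes, with 5 at Gadd45b, 3 each at Cflar and Traf1 and none at Mcl1. Birc2 and Birc3 shared their 2. Over all protein-coding genes with a region in the same window, 63.2% had a region lost with T0. Those genes had a median of 7 regions, against 12 for the survival genes. With lists shortened to equal length, 9 regions had no T0 peak and 7 were gained with T0, so neither count is firm. With LPS present, 14 of 104 regions (13.5%, interval 8.19 to 21.3) had no T0-LPS peak, against 9.97% of all, and 2 of 92 T0-LPS regions (2.17%) had no LPS peak, against 3.37%. These 14 were at percentile 1.72 to 28.8 of the LPS list.

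Across the 4 lists, 70 of the 115 regions (60.9%) held a peak in each, against 70.2% of all regions. The next patterns were peaks in Veh, LPS and T0-LPS but not T0 (10 regions, 8.70%, against 4.98% of all) and peaks in LPS and T0-LPS alone (10 regions, 8.70%, against 2.69%). A peak in LPS alone was found in 8 regions (6.96%, against 2.41%) and in Veh alone in 6 (5.22%, against 7.73%). Where peaks were present, the median percentile was 35.2 in LPS (95% interval 27.8 to 46.0 from order statistics over regions, which are not replicates), against 50.7 over all regions. It was 43.4 in Veh (31.6 to 55.3), 44.3 in T0 (31.9 to 53.5) and 40.9 in T0-LPS (29.0 to 54.4), intervals that include the medians of 50.4 to 51.0 over all regions. The median change was -6.68 points from Veh to T0, against -5.58 over all regions, and -0.906 points from LPS to T0-LPS (interval -2.28 to 0.407), against -1.76. The direction of the latter turned with lists of equal length (2.05), among regions in all 4 lists (1.90) and in the 10 kb window (0.238).

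**Figure D2:**
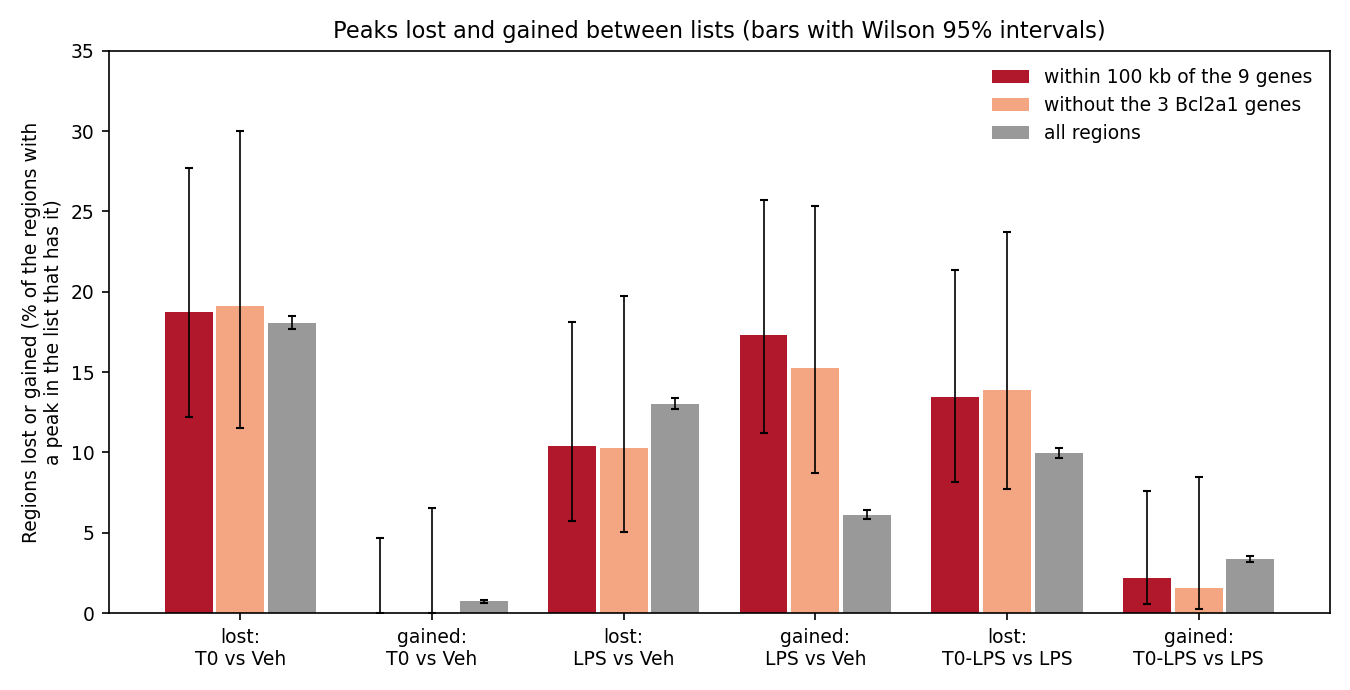
Bars give the percentage of regions lost (of those with a peak in the second list named) or gained (of those with a peak in the first), near the 9 genes (red), near the 6 genes other than Bcl2a1 (light orange) and over all regions (grey), with Wilson 95% intervals for counting error. Gains with LPS near the genes, at 17.3%, stand above the 6.14% of all regions, and losses with T0 are near the 18.1% of all.

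The Bcl2a1 genes encode A1, a BCL-2 family protein that blocks death at the mitochondrion, and lie as copies on chromosome 9 (GRCm38). Bcl2a1a spans chr9:88956900-88962419 and Bcl2a1b chr9:89199209-89207827, both on the plus strand. Bcl2a1d spans chr9:88723285-88731914 on the minus strand. Of the 36 regions near them, 27 fell into 9 families of elements that align between the loci (at least 90% identity over 150 bp), at 93.0 to 100% identity and a median of 98.3%. A median of 67.1% of the 50-base stretches in those 27 regions had another exact copy on chromosome 9, so reads from one copy and another cannot always be told apart. How the authors placed such reads is not given in the sources used here. The copies are therefore described together and are no independent support for each other.

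The intron element of these genes held no peak in Veh or T0 in any copy, and was found in LPS, T0-LPS or both. In Bcl2a1a it lay 3.4 kb downstream of the TSS (chr9:88960050-88960486), with a score of 377 in LPS (percentile 57.4), 338 in T0-LPS (56.7) and no peak in Veh or T0. The Bcl2a1b copy, 6.4 kb downstream (chr9:89205412-89205713), had 291 in LPS (45.8) and 363 in T0-LPS (59.99) and likewise none in Veh or T0. The Bcl2a1d copy, 6.5 kb downstream (chr9:88725237-88725668), had a peak in T0-LPS alone, with 486 (73.3), one of the 2 regions near the survival genes gained with T0 in LPS. The numbering of the LPS peaks left room there for 1 peak that the authors' enhancer filter may have taken out, so its absence in LPS is uncertain. The aligned copies were 97.3% identical between Bcl2a1a and Bcl2a1b, 96.0% between Bcl2a1a and Bcl2a1d, and 99.0% between Bcl2a1b and Bcl2a1d.

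An upstream pair of elements showed the same pattern. The region 14.5 kb upstream of Bcl2a1d (chr9:88746147-88746602, in an intron of the antisense gene Gm10634) had the highest LPS-gained peak near the 9 genes, with a score of 423 in LPS (percentile 62.7) and 322 in T0-LPS (54.4). Its Bcl2a1b copy, 19.6 kb upstream (chr9:89179375-89179824, intergenic), had 320 (50.2) and 292 (50.1). Neither held a peak in Veh or T0. At Bcl2a1a the aligned sequence formed one region 18.0 kb upstream (chr9:88938417-88939311) with the next element. There, the Veh peak covered 202 bp at the far end with a score of 135 (percentile 12.6), the LPS peak covered 851 bp with 478 (68.3), and T0-LPS had separate peaks of 213 bp with 79 (3.13) and of 495 bp with 369 (60.7). T0 had none. This was the largest shift from Veh to LPS near the 9 genes, 55.7 points.

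The sequences shown are those of the LPS-gained regions with the highest LPS percentile, and of the Bcl2a1d copy of the intron element, which had no LPS peak. Each holds the NF-kB consensus, which was searched on both strands. Each line gives 300 bases at the centre of a region, read on the strand of the gene (GRCm38), with consensus matches in capitals. Adjoining capitals of 11 bases are a match on each strand, shifted by 1 base.
Bcl2a1a intron, chr9:88960118-88960417, plus strand: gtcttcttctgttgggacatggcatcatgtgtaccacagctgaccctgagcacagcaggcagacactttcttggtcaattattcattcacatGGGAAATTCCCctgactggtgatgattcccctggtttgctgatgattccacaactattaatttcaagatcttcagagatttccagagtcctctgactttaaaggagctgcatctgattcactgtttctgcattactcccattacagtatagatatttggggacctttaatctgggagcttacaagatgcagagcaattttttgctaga
Bcl2a1b intron, chr9:89205413-89205712, plus strand: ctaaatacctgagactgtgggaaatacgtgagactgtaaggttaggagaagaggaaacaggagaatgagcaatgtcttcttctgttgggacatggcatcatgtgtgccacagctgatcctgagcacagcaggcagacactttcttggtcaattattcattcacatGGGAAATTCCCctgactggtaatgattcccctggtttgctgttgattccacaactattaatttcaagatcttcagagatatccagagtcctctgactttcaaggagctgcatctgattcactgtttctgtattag
Bcl2a1d intron, chr9:88725303-88725602, minus strand: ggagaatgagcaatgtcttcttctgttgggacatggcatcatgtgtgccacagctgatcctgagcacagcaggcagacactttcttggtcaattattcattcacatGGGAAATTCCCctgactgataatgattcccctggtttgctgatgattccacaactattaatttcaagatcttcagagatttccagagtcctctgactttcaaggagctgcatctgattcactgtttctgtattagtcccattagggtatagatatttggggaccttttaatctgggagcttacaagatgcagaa
Bcl2a1b upstream, chr9:89179450-89179749, plus strand: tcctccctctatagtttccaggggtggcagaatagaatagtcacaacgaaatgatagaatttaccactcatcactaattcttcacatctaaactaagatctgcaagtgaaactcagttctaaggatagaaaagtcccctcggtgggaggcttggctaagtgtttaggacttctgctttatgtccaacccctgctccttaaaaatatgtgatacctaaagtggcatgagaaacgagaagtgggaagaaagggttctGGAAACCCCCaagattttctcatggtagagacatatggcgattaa
Bcl2a1d upstream, chr9:88746225-88746524, minus strand: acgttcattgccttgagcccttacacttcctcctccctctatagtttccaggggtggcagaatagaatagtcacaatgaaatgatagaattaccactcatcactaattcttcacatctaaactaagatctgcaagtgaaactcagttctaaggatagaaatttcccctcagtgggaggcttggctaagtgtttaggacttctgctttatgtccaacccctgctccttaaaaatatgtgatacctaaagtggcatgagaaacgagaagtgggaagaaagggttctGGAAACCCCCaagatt
The 3 intron copies were identical over 66 bases around the match, and the match was the same in all of them.

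A further upstream family held LPS-gained peaks in every copy. It lay 13.1 kb upstream of Bcl2a1d (chr9:88744768-88745161) with 226 in LPS (percentile 34.7) and 236 in T0-LPS (40.5). The Bcl2a1b copy, 18.2 kb upstream (chr9:89180782-89181209), had 166 (22.8) and 79 (3.13). The Bcl2a1a copy, 16.4 kb upstream (chr9:88940379-88940585), had 94 in LPS (4.96) and no peak in T0-LPS. All 3 share the match GGGAAATCCC, which lay 39 bases outside the short Bcl2a1a region. All 7 LPS-gained regions of the Bcl2a1 genes thus had an NF-kB match in their 300 bases, but they come from 3 families of copies.

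Regions near the Bcl2a1 promoters were open in every list and shifted in opposite directions with LPS. The element 3.6 to 3.7 kb upstream was at percentile 55.8, 64.5 and 61.2 of the Veh list for Bcl2a1a, Bcl2a1b and Bcl2a1d. It was lower in T0, at 39.7, 39.99 and 50.7, and higher in LPS, at 77.2, 71.9 and 76.2. In T0-LPS it was at 77.2, 71.9 and 83.3. The element 0.5 to 0.7 kb upstream gave the 3 largest downward shifts with LPS near the 9 genes. It went from 61.0 to 26.7 at Bcl2a1a, from 53.7 to 19.9 at Bcl2a1b and from 61.9 to 25.8 at Bcl2a1d, with 19.3, 11.5 and 26.2 in T0-LPS. The regions over the TSS itself, which reach into the 5′ untranslated region, were at 75.8 to 87.3 in Veh and 72.6 to 77.8 in LPS.

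**Figure D3:**
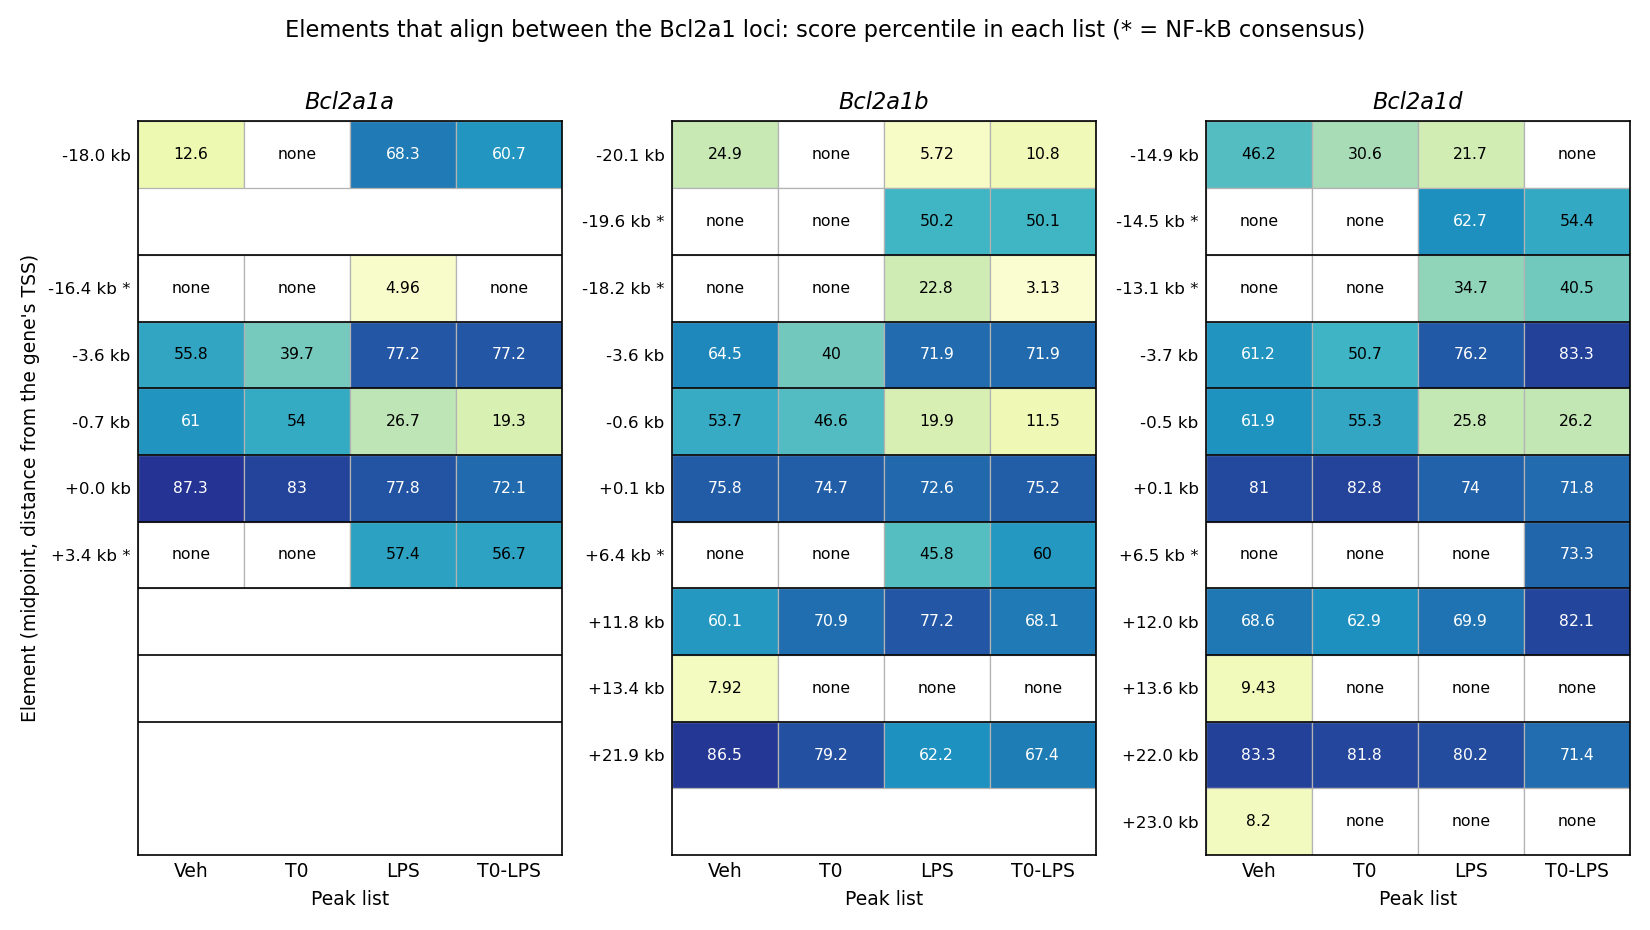
Each cell gives the score percentile of an element in one list (columns) at Bcl2a1a, Bcl2a1b or Bcl2a1d (panels), with elements that align between the loci in the same row between black lines and stars for an NF-kB consensus within 300 bp. Of these aligned elements, those with a star were empty in Veh and T0 and filled in LPS, T0-LPS or both. The element near -0.6 kb was at 53.7 to 61.9 in Veh and 19.9 to 26.7 in LPS.

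Farther from the Bcl2a1 genes, several regions with a Veh peak had none in other lists. Copies 13.4 kb downstream of Bcl2a1b and 13.6 kb downstream of Bcl2a1d had Veh peaks at percentile 7.92 and 9.43 and none in the other lists. The Bcl2a1d region 14.9 kb upstream (chr9:88746677-88747027) was at 46.2 in Veh, 30.6 in T0 and 21.7 in LPS and had no T0-LPS peak. Regions 54.4 and 69.8 kb downstream of Bcl2a1b, in introns of Mthfs, went from 31.6 and 35.1 in Veh to 14.3 and 28.4 in T0 and to 10.4 and 8.44 in LPS, and had no T0-LPS peak. For the second of them, which held an NF-kB match, the T0-LPS list had room for 4 removed peaks.

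Mcl1 (chr3:95658788-95663176, plus strand) encodes another mitochondrial survival protein, known for its short life in the cell. All 4 lists had a peak in 14 of its 20 regions, and it was the one gene of the 9 with no region lost with T0. The promoter region (chr3:95658531-95659728), with its midpoint 342 bp downstream of the TSS, scored 457 in Veh (percentile 59.2) and 291 in T0 (48.0), against 459 in LPS (66.4) and 425 in T0-LPS (67.3). Its strongest region, 70.0 kb upstream (chr3:95588559-95589084), was at 98.7, 94.7, 93.1 and 95.9. Both Mcl1 regions gained with LPS were weak, 2.8 kb upstream at percentile 12.5 of LPS alone and 43.6 kb downstream at 11.1 in LPS and 3.59 in T0-LPS. At the second, the numbering of the Veh list left room for 1 removed peak. Where both lists held a peak, 4 of 14 Mcl1 regions were at least 20 points lower in LPS than in Veh. One of them, 9.4 kb downstream, was at 33.4 in Veh and 26.5 in T0, against 2.51 in LPS and 22.9 in T0-LPS, the largest upward shift from LPS to T0-LPS near the 9 genes (20.4 points). The region 13.4 kb upstream was higher with LPS, from 29.5 in Veh to 51.1 in LPS and 48.2 in T0-LPS.

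Birc3 and Birc2 encode cIAP2 and cIAP1, ubiquitin ligases of TNF receptor complexes that hold back cell death. They lie next to each other on the minus strand of chromosome 9, Birc3 at chr9:7848699-7873186 and Birc2 at chr9:7818227-7837064. The Birc3 promoter region (chr9:7872713-7873337) scored 737 in Veh (percentile 81.1) and 531 in T0 (75.8), against 952 in LPS (94.5) and 958 in T0-LPS (96.2). It held 2 NF-kB matches, GGGGATTTCC at 106 bp and GGGGAACTCC at 167 bp downstream of the TSS. The Birc2 promoter region (chr9:7836758-7837515) was near the top of every list, at 98.5, 98.4, 98.6 and 98.5, and had no match.

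The other regions of this locus were mostly in introns of the neighboring gene Tmem123, 51.2 to 62.3 kb downstream of the Birc2 TSS. One of them (chr9:7775104-7775317) was at percentile 39.2 in Veh and 14.5 in LPS and had no peak in T0 or T0-LPS, the strongest Veh peak near the 9 genes that T0 lacked. Its neighbor (chr9:7776071-7776324) was at 43.5 in Veh and 13.7 in T0, against 12.2 in LPS and 20.0 in T0-LPS, the largest downward shift with T0 alone (-29.7 points). The LPS-gained region of the locus, in an intron of Birc3 1.3 kb downstream of its TSS, was at 1.72 in LPS, with room for a removed peak in all 3 other lists.

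Cflar (chr1:58711508-58758884, plus strand) encodes c-FLIP, a catalytically dead relative of caspase-8 that competes with it at death receptors. The region nearest its TSS, 265 bp downstream (chr1:58711682-58711864), was a weak Veh peak with a score of 75 (percentile 1.55). It was absent from the other lists, but all of them had room for a removed peak there. The changes lay deeper in the gene. An intron region 12.8 kb downstream (chr1:58724121-58724421) had no peak in Veh or T0 and was at 30.4 in LPS and 28.5 in T0-LPS. A neighbor 14.5 kb downstream (chr1:58725855-58726231) went from 19.7 in Veh and none in T0 to 46.1 in LPS and 36.7 in T0-LPS. Neither had an NF-kB match in its central 300 bases.

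Cflar also held the 3 largest downward shifts from LPS to T0-LPS. These were from 30.3 to 3.02 at 1.6 kb downstream, where Veh was at 21.1 and T0 at 14.1, from 34.7 to 10.8 at 47.9 kb upstream and from 27.8 to 6.84 at 62.0 kb downstream. In the last region, which is intergenic (chr1:58773366-58773644), Veh was at 51.2 and T0 at 39.7. At 97.5 kb upstream, T0 gave the largest upward shift near the 9 genes, from 40.04 in Veh to 53.5. Regions 84.0 and 91.1 kb downstream lay over untranslated exons of Casp8, the caspase that c-FLIP restrains, and went from 66.8 and 89.0 in Veh to 61.3 and 72.4 in LPS.

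Traf1 (chr2:34941750-34961772, minus strand) encodes an adaptor that binds TRAF2 and the cIAP proteins at TNF receptors. An intron region 3.5 kb downstream of its TSS (chr2:34958063-34958440) had no peak in Veh or T0, a score of 255 in LPS (percentile 40.05) and 183 in T0-LPS (29.7). The other Traf1 regions gained with LPS, 7.9 and 48.3 kb downstream, were at 4.80 and 5.27 in LPS alone. The region nearest the TSS, 1.7 kb upstream, was absent in T0 and at 6.77 in Veh, 18.3 in LPS and 10.8 in T0-LPS. Its LPS peak was 900 bp wide, against 298 bp in Veh. A region 22.7 kb downstream (chr2:34938871-34939232) had the same order of lists, with no T0 peak and 12.6 in Veh, 30.3 in LPS and 22.9 in T0-LPS. LPS was below Veh 16.9 kb downstream in an intron (chr2:34944724-34945083), at 63.6 in Veh, 40.9 in LPS, 34.2 in T0 and 28.4 in T0-LPS. The same held 14.9 kb upstream, at 30.1 in Veh, 15.2 in LPS and 21.4 in T0-LPS with no T0 peak. Higher in T0-LPS than in LPS were regions 15.5 kb upstream (48.4 to 65.6) and 90.6 kb downstream in Psmd5 (38.5 to 55.5).

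Gadd45b (chr10:80930073-80932204, plus strand) encodes a stress-induced protein that restrains JNK signaling. It had the most LPS-gained regions, 4, and the most lost with T0, 5. The promoter region (chr10:80929573-80930279) was at percentile 66.1 in Veh and 71.4 in T0, against 75.5 in LPS and 79.6 in T0-LPS, and its peak widened from 383 bp in Veh to 593 bp with LPS and 707 bp with T0-LPS. A region 5.4 kb downstream (chr10:80935393-80935593, intergenic) had no peak in Veh or T0, 190 in LPS (27.8) and 181 in T0-LPS (29.2). The other 3 were found in LPS alone: 1.3 kb upstream at 5.11, 0.5 kb downstream in an intron at 12.2 and 52.5 kb downstream in an intron of Gng7 at 28.8. For the one at 52.5 kb, the T0-LPS list had room for 1 removed peak, so its absence there is uncertain. Of the 4, all but the last had an NF-kB match in the central 300 bases. The matches of the intron region and of the one 5.4 kb downstream are shown with 25 bases on each side, in capitals, on the plus strand.
Gadd45b intron, chr10:80930616-80930675: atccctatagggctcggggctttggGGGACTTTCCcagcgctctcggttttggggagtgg
Gadd45b downstream, chr10:80935513-80935572: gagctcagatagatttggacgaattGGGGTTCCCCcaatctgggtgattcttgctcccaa
The first ended 1 base outside its region and the second lay inside.

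Distal Gadd45b regions gave 2 of the 3 largest upward shifts with LPS. The region 37.5 kb downstream, in an intron of Gng7 (chr10:80967346-80967816), went from a score of 304 in Veh (percentile 41.2) and 271 in T0 (44.7) to 589 in LPS (77.9) and 579 in T0-LPS (80.9). It held overlapping NF-kB matches on both strands. The region 51.6 kb upstream, in an intron of Tmprss9 (chr10:80878348-80878677), was absent in T0 and at 12.6 in Veh, 40.05 in LPS and 29.0 in T0-LPS. Regions 11.8 and 8.0 kb upstream were at 29.9 and 25.6 in Veh and absent in T0, where the list had room for a removed peak at both. In LPS they were at 34.1 and 14.1, and in T0-LPS at 16.6 and none.

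**Figure D4:**
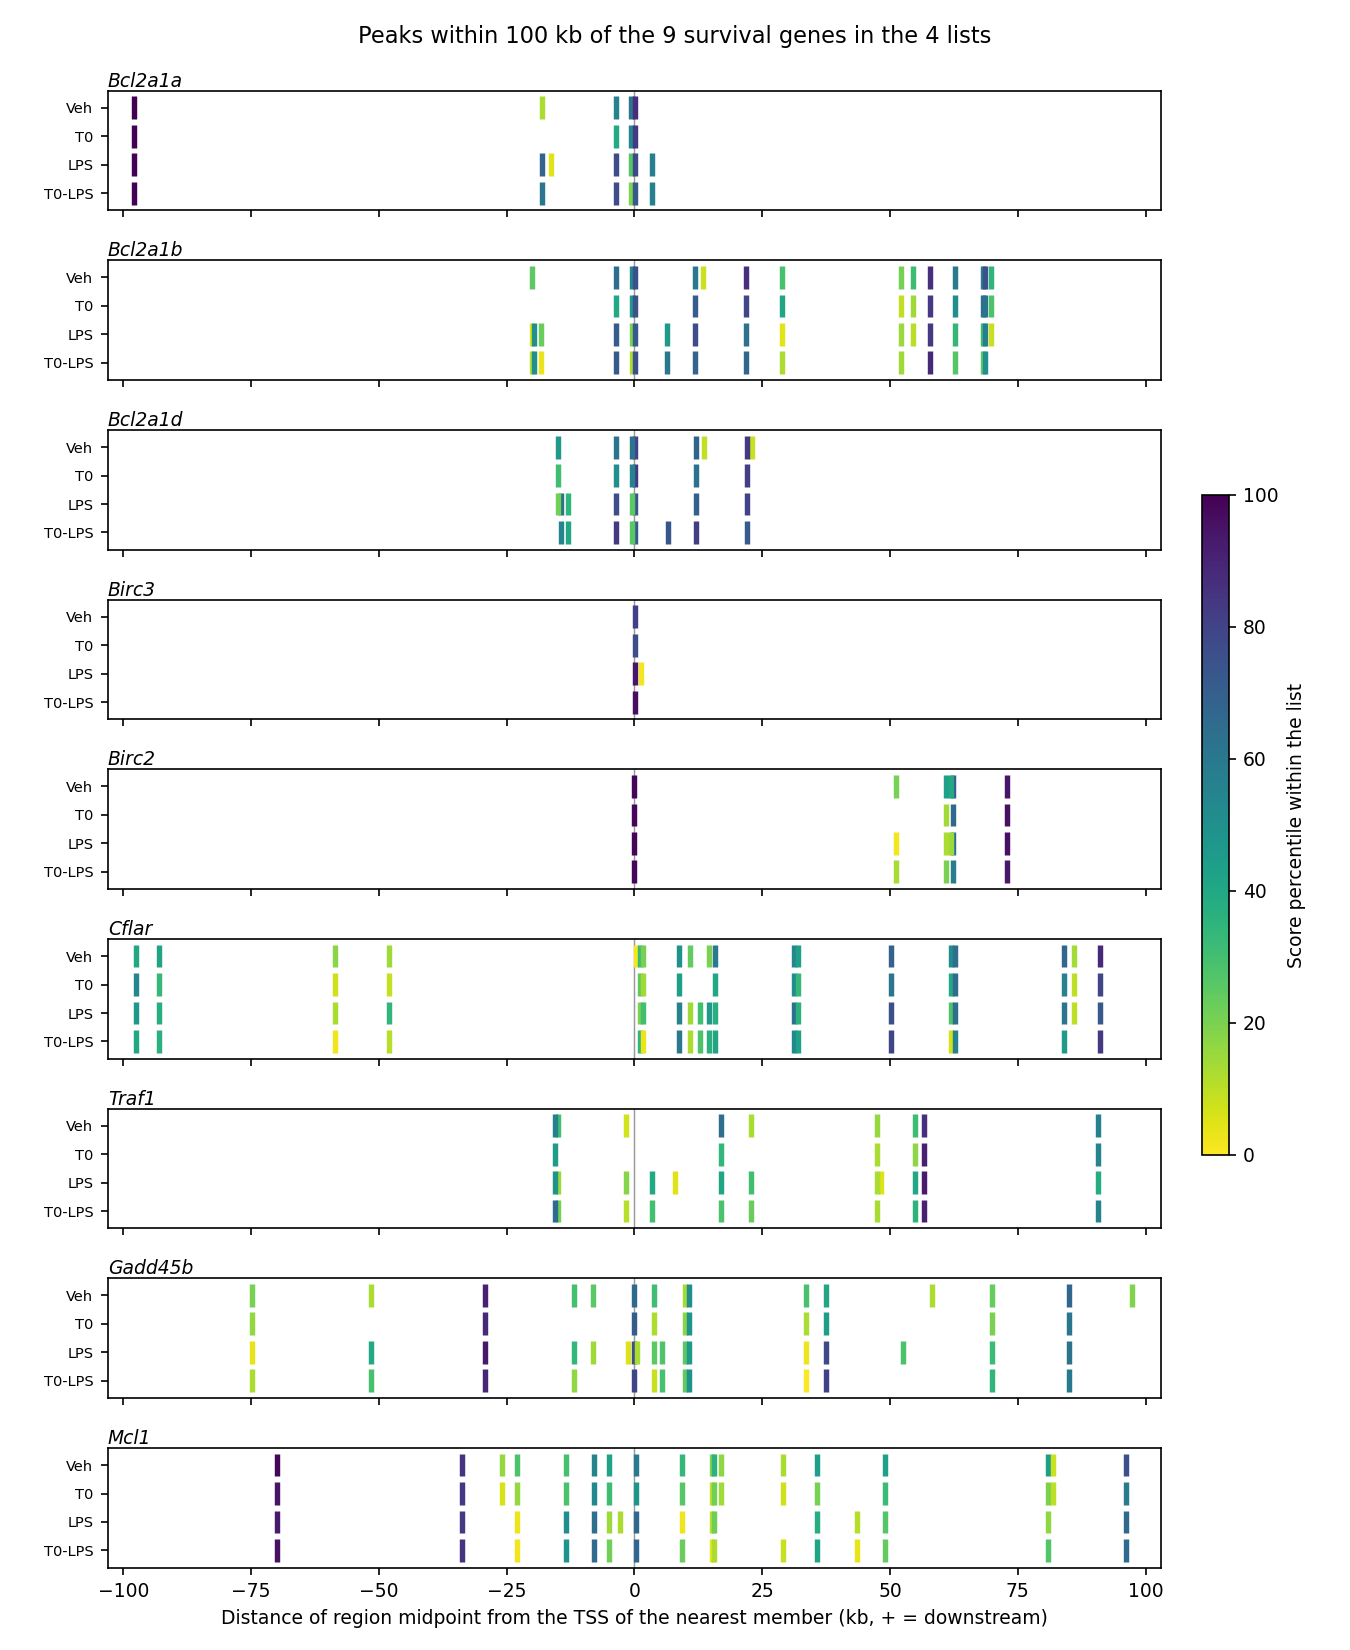
Each panel shows one gene, with vertical bars for peaks of the 4 lists at their region's distance from the TSS of the nearest of the 9 genes (kb, positive downstream), colored by score percentile from 0 (yellow) to 100 (dark). Most columns run through all 4 lists, as for 70 of the 115 regions, and columns open in LPS but empty in Veh lie mostly near a TSS, 15 of 18 within 20 kb, as do 53 of all 104 regions with an LPS peak.

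**Figure D5:**
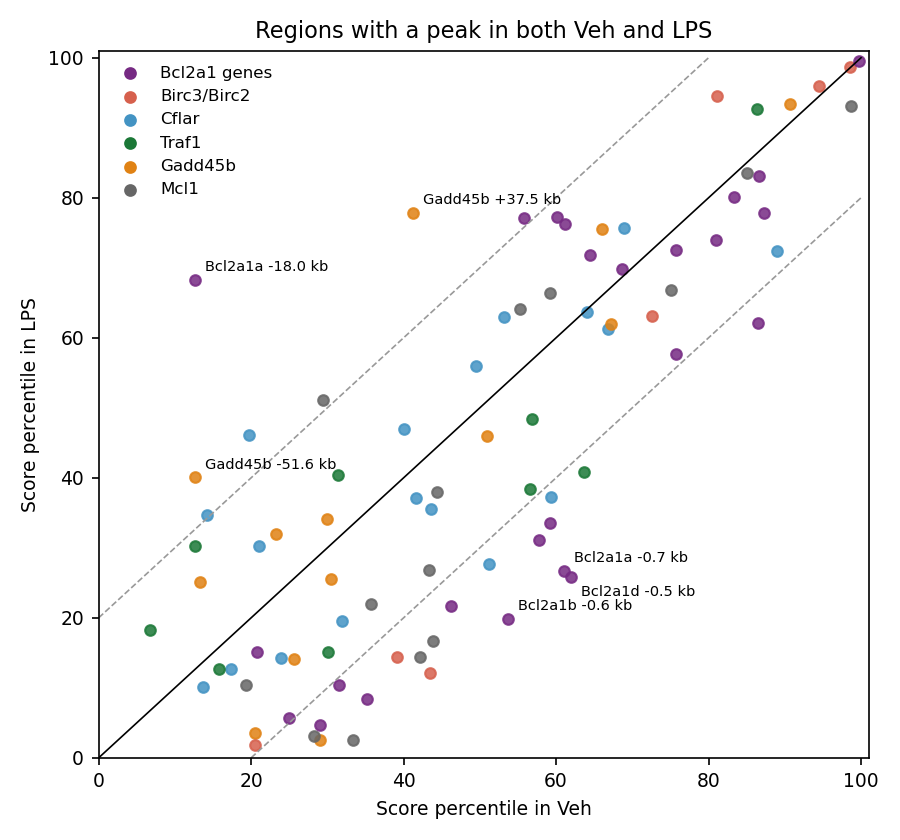
Each of the 86 regions with a peak in both lists is placed by its score percentile in Veh (horizontal) and LPS (vertical), colored by gene, with the line of equality and dashed lines at 20 points above and below. The labels mark the 3 largest shifts in each direction, with Bcl2a1a -18.0 kb at 12.6 and 68.3, and 20 regions lie on or below the lower dashed line.

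Over the 115 regions, 16 (13.9%) held the NF-kB consensus in their central 300 bp, against 5.89% of 37620 regions on the main chromosomes. In the central 200 bp these shares were 6.96% (8 regions) and 4.30%. In 4 of the 16 every match lay outside the region itself. Of the 18 LPS-gained regions, 10 had a match, against 21% of all LPS-gained regions, and in 3 of these 10 it lay outside the region. The 6 other regions with a match were not LPS-gained. A match was in 3 of the 70 regions in all 4 lists, against 5.29% of all such regions. Of the 10 LPS-gained regions with a match, 7 were at Bcl2a1 genes and 3 at Gadd45b, and none of the 7 LPS-gained regions of the other genes had a match. Those at Bcl2a1 genes come from families of aligned copies and are not separate observations. Without the Bcl2a1 genes, 3 of 11 LPS-gained regions and 7 of all 79 regions had a match. By gene, a match was in 9 of 36 regions at the Bcl2a1 genes and 6 of 19 at Gadd45b. The other genes together had 1 in 60 regions, so the higher share over the 115 regions came from these loci. With the central 200 bp, 5 of the 18 LPS-gained regions had a match, against 18.1% of all LPS-gained regions. AP-1 sites (TGACTCA or TGAGTCA, either strand) were in 2 of 18, against 16.9% of all LPS-gained regions. The PU.1 site GAGGAAGT was in 1, against 7.50%, the IRF motif (GAAA, any 2 bases, GAAA) in 0, against 10.95%, and the nuclear receptor half-site AGGTCA in 3, against 18.1%. Among the 18 T0-lost regions, 4 (22.2%) held AGGTCA, against 16.7% of all T0-lost regions. The motifs have different cores and were counted each on its own.

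Promoter windows of RefSeq (GRCm38.p6, 250 bases before to 50 after a start) were found for all 9 genes, with 10 windows. No window held the NF-kB consensus, which was in 4.51% of all 32851 windows. The matches of the Birc3 promoter region, 106 and 167 bp downstream of its TSS, lie outside its window. GAGGAAGT was in each of the 3 Bcl2a1 windows and in no other of the 10, against 3.20% of all.

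Related genes were counted from fixed lists. The counts of genes include regions shared with the 9 genes, and the shares of regions leave those out. Of 30 other apoptosis and death receptor genes, 17 had an LPS-gained region within 100 kb. Of their 335 LPS regions, 30 were gained (8.96%, Wilson interval 6.34 to 12.5). Of 15 genes for NF-kB subunits and inhibitors, 11 had such a region, and 22 of 175 were gained (12.6%, 8.45 to 18.3). Over all protein-coding genes with a region in that window, 29.5% had an LPS-gained region. Their median was 7 regions, against 14 and 13 in these lists. The share of regions near the 9 survival genes was 17.3% (11.2 to 25.7), or 15.3% (8.75 to 25.3) without the Bcl2a1 genes. Over all regions it was 6.14%. The intervals of both lists overlap that of the survival genes, so these counts do not set the survival genes apart from them.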

How the data were processed

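ATAC-seq peak lists of 4 groups of 4 libraries were used, 16 in all. Per the methods of the study, the authors trimmed adaptors with cutadapt, mapped reads with Bowtie2, took out duplicates with SAMtools, called peaks with MACS2 on the 4 libraries of a group together (q 0.001, shift 88 bp, extension 177 bp) and kept peaks that matched H3K27ac or H3K4me2 macrophage enhancers. The build in the submitters' processing notes is mm10, and all 129556 peaks on the main chromosomes ended within GRCm38. Each deposited list holds 1 score per peak, a whole number whose scale no header states and which was used to rank, describe or filter peaks of a list. Read numbers, and so the depth per library, are unknown.

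From these lists, peaks overlapping by at least 1 bp were joined into regions, and a region took its highest score in a list. TSSs and annotation came from GENCODE M21 and sequences from the GRCm38 genome. The score percentile split ties evenly. Peak numbers missing between the flanking peaks of a list were taken as room for a peak that the filter may have removed. Intervals are Wilson 95% (scipy 1.17.1) and cover counting error only. Copies were aligned with blastn 2.17.0. The joining, percentile and room steps were tested on simulated lists.

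Named regions were those nearest each TSS, those missing from a list and at percentile 25 or more in another, and the 3 largest shifts in each direction of each comparison, beside other regions of the same genes chosen after their values were seen. The genes and lists were chosen with earlier results of these data known. Alternatives tried were a score minimum, lists of equal length, joining across gaps, other windows and start sites, no room for a removed peak, another percentile base and, chosen after seeing the data, aligned copies counted once and no Bcl2a1 genes.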

Additional observations from a re-analysis of the deposited data

How the results depend on the processing

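No paired analysis was possible because each list pools the 4 libraries of a group, and for the same reason no library could be left out. The 18 LPS-gained regions became 9 in the 10 kb window and 11 without the 3 Bcl2a1 genes (chosen after seeing the data), and were within 1.5 times of 18 under the other alternatives. The 10 LPS-lost regions became 21 with only peaks scoring at least 200 (30.9% of Veh regions, against 18.1% of all) and 1 in the 10 kb window. The score minimum and the lists of equal length count a peak below the cut as missing. The 18 T0-lost regions became 9 with lists of equal length and 3 in the 10 kb window, and the 14 lost with T0 in LPS became 9 in the 50 kb window and 6 in the 10 kb window. With lists of equal length, 7 regions were gained with T0 (0 as reported) and 7 with T0 in LPS (2 as reported), so the absence of T0 gains depends on list length. The latter count was 1 in the 10 kb window and 1 where no room was left. The median change from Veh to LPS was -2.76 points with lists of equal length, -1.61 among regions with a peak in all 4 lists and turned to 0.124 in the 10 kb window. From LPS to T0-LPS it was 2.05 with lists of equal length and 1.90 among regions in all 4 lists, 0.238 in the 10 kb window and -0.425 in the 50 kb window, against -0.906 as reported. The share with an NF-kB consensus was 6.96% in 200 bp, against 13.9% in 300 bp. The cause was not tested, beyond smaller windows holding fewer regions.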

Other observations

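Near the 9 genes, LPS-gained regions were 21 of 91 LPS regions (23.1%) with lists of equal length, against 9.30% of all regions. With only peaks scoring at least 200 they were 14 of 61 (23.0%), against 5.76%. Both counts include regions whose Veh peak was taken out by the cut, so they are not only peaks absent from the Veh list.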
